A study of Homo sapiens with 5 samples.

Results

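Transcripts of 10 genes of B cell receptor signalling, the receptor chains CD79A and CD79B, the kinases LYN, SYK and BTK, the phospholipase PLCG2 and the adaptors BLNK, DAPP1, FYB1 and PIK3AP1, were followed in the human leukemia cell line RS4.11 on 5 whole-transcript arrays. All cells were grown in vitro. Cells on 2 arrays had received only the solvent DMSO for 20 h, and cells on 3 arrays had received 10 uM of the GSK-3 inhibitor SB216763 over the same 20 h. The labels name 1 cell line, described as MLL leukemia cells, and are silent on whether each array had its own culture. P-values therefore reflect array-to-array spread alone, and that spread may be technical. Of the 10 genes, 9 had a probe that names them alone, out of 18417 such genes on the array; PIK3AP1 was not analysed here. The 10 were listed by name when results of these arrays were already known, in which BLNK, DAPP1 and FYB1 stood out as higher with SB216763. These 3 were in effect selected on the SB216763 minus control difference, and their differences are given as a description with no test. Where a gene had several probes, the one shown was chosen by its mean over all 5 arrays.

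The B cell receptor is an immunoglobulin held in the membrane beside the signalling chains CD79A and CD79B. When antigen is bound, the Src family kinase LYN phosphorylates the CD79 tails, the kinase SYK docks on them, and SYK in turn phosphorylates the adaptor BLNK, on which the kinase BTK and the phospholipase PLCG2 assemble to release calcium. PIK3AP1 brings in PI3 kinase, and the lipid-binding adaptor DAPP1 and the cytoskeletal adaptor FYB1 act further along. LYN, SYK, BTK, PLCG2 and FYB1 also serve Fc receptors and integrins in myeloid cells.

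Values are log2 expression values, so a difference of 1 is a doubling. A level was called above background where it exceeded the 95th percentile of 341 olfactory receptor genes on the same array, which lay between 5.98 and 6.19. Array medians ran from 6.77 to 6.84, and arrays correlated across probes with r of at least 0.989.

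RS4.11 is usually classed as a B cell precursor line, and the marker genes went only partly with that label. Of 11 measured B precursor markers, CD79B, PAX5 and IGLL1 were above background on all 5 arrays, the last by 1.83 to 2.31, and 6 were above it on none, namely CD22, VPREB1, RAG1, DNTT, MME and CD24. CD79A, CD79B and BLNK belong to both this list and the 10 genes. All 9 measured myeloid markers were above background on all 5 arrays. The same held for 1 of 8 T cell markers (LAT), 3 of 6 NK cell markers and 3 of 5 erythroid markers, and 6 of the T cell markers and 3 of the NK cell markers were above background on no array. EBF1, CD33 and HBG1 were not analysed here. Whether the arrays hold the labelled line was not tested. The 10 measured B precursor markers other than BLNK, which was left out after its values were seen, had a median level of 5.55 and 5.58 on the control arrays and 5.66, 5.52 and 5.69 on the SB216763 arrays, which overlapped, and limma called 0 of the 10 (0 also at unadjusted p under 0.05). The median of the 9 myeloid markers ran from 7.62 to 7.85 and from 7.81 to 8.18, which overlapped too. Limma called 3 of the 9 myeloid markers, LYZ, CSF3R and CD68, higher by 0.78 (SE 0.09), 1.23 (SE 0.11) and 1.00 (SE 0.08), with adjusted p-values of 0.00274, 0.000843 and 0.000588. The 6 others did not pass, among them MPO at -0.23, ELANE at -0.05 and ITGAM at 0.27. Over all 18417 genes limma called 7.21% higher and 5.92% lower. With only genes above background on at least 2 arrays these shares were 13.1% and 10.9%. Of the 10 B precursor markers, 6 were below background on every array, where a change can be understated. Of the 6 NK cell markers NKG7 rose, by 0.88 (SE 0.08, adjusted p = 0.000928), and the 5 others did not pass, with differences from -0.10 to 0.07. With either control array removed these 4 calls did not pass. Such a fit leaves 1 control array, so this does not set the 4 genes apart from others called. Without control replicate 1 the differences of LYZ, CSF3R, CD68 and NKG7 were 0.72, 1.34, 1.00 and 0.83. Without control replicate 2 they were 0.84, 1.11, 1.00 and 0.93. The part of these lineage genes in the results below was not tested, and in bulk RNA fewer cells of a type and less RNA per cell cannot be told apart.

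**Figure D1:**
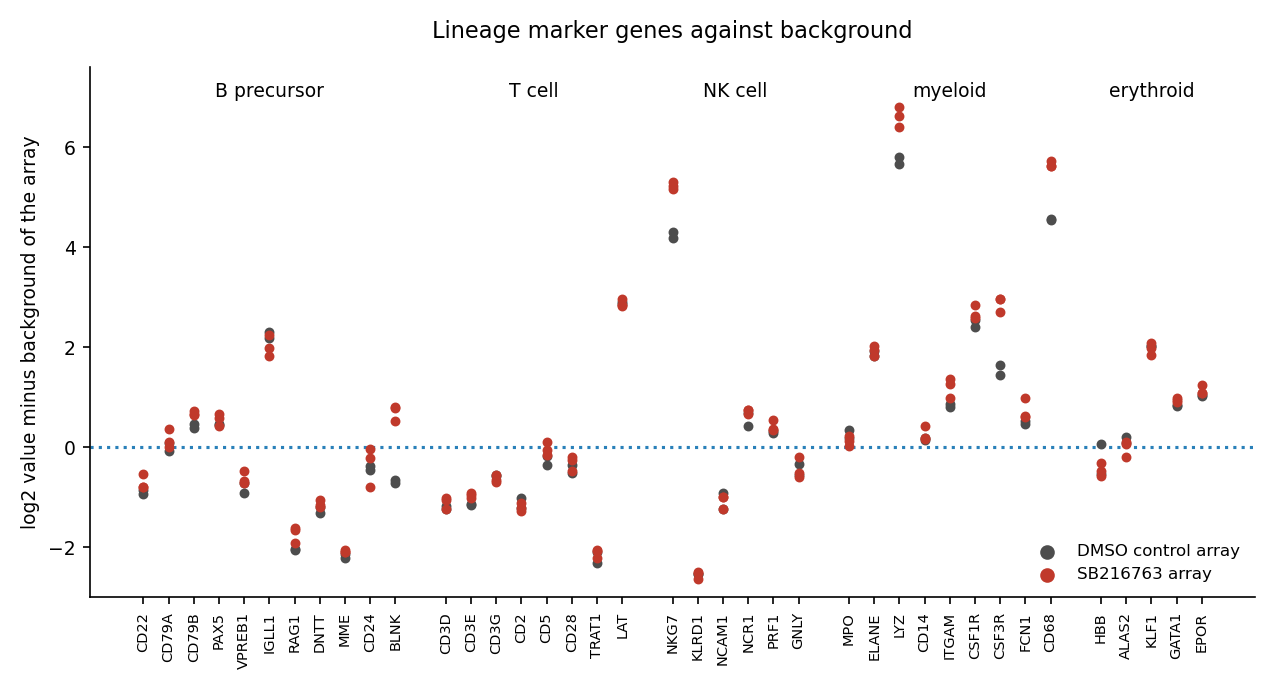
Lineage marker genes on each array, as the log2 value minus the background of that array (vertical axis), with 1 column of points per gene and the dotted line at background; grey points are the 2 control arrays and red points the 3 SB216763 arrays. The 9 myeloid markers lie above the line on all arrays, MPO, CD14 and FCN1 by a small margin, while 6 of the 11 B precursor markers lie below it on all of them.

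The sequence before the start of a gene is shown for the 3 adaptors with the largest differences and for CD79A and BTK, because these 5 were the ones to hold the letters AGGAAGT, a site of the kind bound by ETS factors such as PU.1, among the 8 of the 10 genes with an entry in the RefSeq promoter table (build GRCh38.p14). Each run is the 250 bases before the start, 5′ to 3′ in the direction of the gene, with AGGAAGT or its reverse complement in capitals. BLNK is at chr10:96271570-96271819 on the minus strand, DAPP1 at chr4:99816577-99816826 on the plus strand, FYB1 at chr5:39270650-39270899 on the minus strand, CD79A at chr19:41877029-41877278 on the plus strand and BTK at chrX:101390797-101391046 on the minus strand.
BLNK: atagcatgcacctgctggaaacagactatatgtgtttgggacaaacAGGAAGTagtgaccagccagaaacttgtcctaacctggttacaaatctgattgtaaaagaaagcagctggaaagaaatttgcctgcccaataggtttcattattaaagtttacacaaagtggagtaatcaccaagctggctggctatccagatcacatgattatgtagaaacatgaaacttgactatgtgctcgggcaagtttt
DAPP1: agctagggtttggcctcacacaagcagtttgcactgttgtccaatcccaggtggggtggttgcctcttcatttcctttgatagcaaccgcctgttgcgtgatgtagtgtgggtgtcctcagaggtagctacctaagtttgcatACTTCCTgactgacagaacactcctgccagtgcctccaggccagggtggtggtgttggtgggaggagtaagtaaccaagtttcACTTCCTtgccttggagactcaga
FYB1: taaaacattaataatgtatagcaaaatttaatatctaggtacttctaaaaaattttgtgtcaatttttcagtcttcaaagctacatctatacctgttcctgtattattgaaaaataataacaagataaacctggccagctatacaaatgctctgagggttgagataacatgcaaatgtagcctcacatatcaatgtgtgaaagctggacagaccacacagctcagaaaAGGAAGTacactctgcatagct
CD79A: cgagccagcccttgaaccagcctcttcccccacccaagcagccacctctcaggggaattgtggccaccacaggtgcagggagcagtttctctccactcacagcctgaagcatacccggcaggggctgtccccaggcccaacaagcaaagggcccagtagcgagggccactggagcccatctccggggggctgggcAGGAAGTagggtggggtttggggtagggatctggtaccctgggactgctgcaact
BTK: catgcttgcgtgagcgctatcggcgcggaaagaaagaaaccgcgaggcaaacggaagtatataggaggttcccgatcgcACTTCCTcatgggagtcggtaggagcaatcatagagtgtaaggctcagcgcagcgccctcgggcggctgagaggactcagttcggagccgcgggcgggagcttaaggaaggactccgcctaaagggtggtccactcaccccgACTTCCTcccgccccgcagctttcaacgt

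AGGAAGT was searched on both strands and was picked after the sequences had been seen. It was present in 7.10% of the 27305 promoter windows of this length, and once each in those of BLNK, FYB1 and CD79A and 2 times each in those of DAPP1 and BTK. The windows of BLNK, DAPP1 and FYB1 were poor in CG pairs, with 1, 2 and 0 of them beside a median of 11 over all windows, and those of CD79A and PLCG2 were also below it, with 4 each. The windows of SYK, BTK and PIK3AP1 held 13, 24 and 25. The E-box CANNTG, bound by factors such as E2A, was in 6 of the 8 windows and in 62.2% of all. CTTTGA, the core letters of a TCF/LEF site, was in the windows of DAPP1 and FYB1 and in 11.4% of all. The shorter ETS core GAGGAA, in 23.4% of all windows, was in those of BTK and PIK3AP1, in BTK overlapping AGGAAGT, and CCCNNGGG, the form bound by EBF1, was in that of BTK and in 16.6% of all. GTAAACA, a forkhead site, the cAMP element TGACGTCA and TATAAA were in none of the 8 and in 2.98%, 1.77% and 11.1% of all. These are matches of letters only, and binding was not measured.

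The 3 adaptors differed most among the 9 measured genes. FYB1, which links immune receptors to integrin activation, read 6.47 and 6.72 on the control arrays and 8.24, 7.98 and 8.24 on the SB216763 arrays. Every SB216763 array was above both control arrays by more than the spread within either group, and all 5 values were above background. The group means were 6.59 ± 0.18 (SD, n = 2) and 8.15 ± 0.15 (SD, n = 3), a difference of 1.56 (SE 0.12), or 2.95-fold. Of all 18417 genes, 7 had a larger increase, but FYB1 was in effect picked on this difference, so its rank is a description only.

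A second probe also names FYB1, and it was above background on no array. It read 4.32 and 4.43 with DMSO and 4.57, 4.25 and 4.78 with SB216763, so its groups overlapped. Averaging both probes brought the FYB1 difference to 0.86 (SE 0.13).

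DAPP1, also known as Bam32, binds the lipids that PI3 kinase makes at the activated receptor. Its level was 5.74 and 5.86 on the control arrays, below background on both, and 7.25, 7.21 and 7.47 on the SB216763 arrays, above background on all 3. The groups did not overlap, and the means of 5.80 ± 0.09 (SD, n = 2) and 7.31 ± 0.14 (SD, n = 3) differed by 1.52 (SE 0.10). Against background rather than the measured control level, DAPP1 was at least 2.19-fold higher with SB216763.

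BLNK, the scaffold that SYK phosphorylates, showed the same pattern at lower brightness. It read 5.53 and 5.47 with DMSO, under background on both arrays, and 6.93, 6.68 and 6.76 with SB216763, over it on all 3. The means were 5.50 ± 0.05 (SD, n = 2) and 6.79 ± 0.13 (SD, n = 3), a difference of 1.29 (SE 0.10), or at least 1.53-fold higher. BLNK was thus not detected over background in DMSO cells and was detected in each SB216763 sample. Over all array and model settings tried, the difference lay between 1.22 and 1.41 for BLNK and between 1.44 and 1.58 for DAPP1. For FYB1 it lay between 0.86, with its probes averaged, and 1.68. These settings refit the same arrays on which the 3 genes were in effect selected, so the ranges are a description only.

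**Figure D2:**
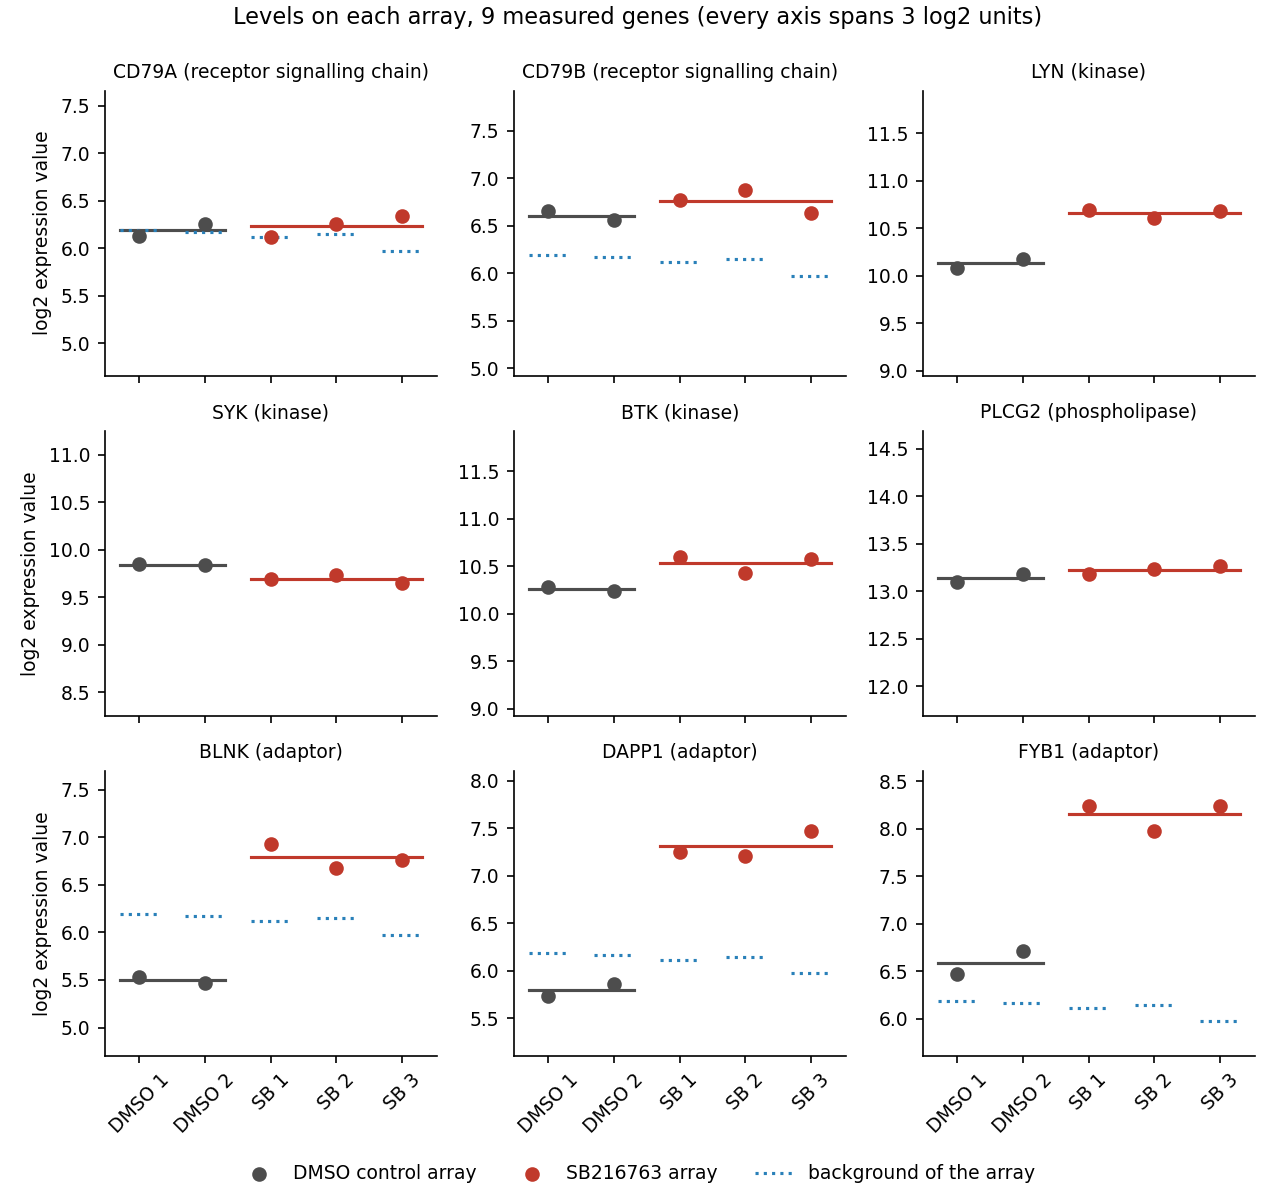
Log2 expression values of the 9 measured genes on each of the 5 arrays, one panel per gene, each vertical axis spanning 3 log2 units; points are arrays, solid lines group means and dotted marks the background of each array. BLNK, DAPP1 and FYB1 are higher on all 3 SB216763 arrays, LYN is higher by 0.53, and the CD79 chains lie at or slightly over background.

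The 6 other measured genes moved less. By limma, 1 of the 6 was called higher and 0 lower with Benjamini-Hochberg adjustment over all genes, beside 7.21% of all 18417 genes called higher, 5.92% lower and 13.1% either way. With the arrays centred on their medians 5.69% of all genes were called higher and 8.34% lower. Over all 18417 genes limma called 0 higher and 1 lower without control replicate 1, and 0 in either direction without control replicate 2, with 19.6% and 21.5% at unadjusted p under 0.05. At an unadjusted p under 0.05 the 6 held 2 higher and 0 lower genes, beside 26.5% of all genes in either direction, and an ordinary linear model called 0. The median difference of the 6 was 0.12, beside 0.00 over all genes tested.

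LYN, the Src family kinase that both starts and restrains receptor signalling, was the gene called. It read 10.08 and 10.18 with DMSO and 10.69, 10.61 and 10.68 with SB216763. The groups were separated by several times their spread, at 10.13 ± 0.07 (SD, n = 2) and 10.66 ± 0.04 (SD, n = 3). LYN rose 1.45-fold, by 0.53 (SE 0.08, 95% interval 0.35 to 0.72, adjusted p = 0.00603 by limma). LYN did not pass without control replicate 1, at a difference of 0.48 (adjusted p = 0.0928), and without control replicate 2, at 0.58 (adjusted p = 0.0693), and in a model without moderation (adjusted p = 0.0615). Adjusted p-values for LYN ran from 0.000685 to 0.0928 over the settings tried.

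BTK, the Tec family kinase that activates PLCG2, read 10.28 and 10.24 with DMSO and 10.59, 10.43 and 10.58 with SB216763, again without overlap. Its difference of 0.27 (SE 0.08, 95% interval 0.07 to 0.47) did not pass limma's threshold (adjusted p = 0.0788). It passed in 5 of 14 other settings, namely a filter on dim genes (adjusted p = 0.0444), quantile normalization (adjusted p = 0.0317), a variance trend with robust fitting (adjusted p = 0.0276), array weights (adjusted p = 0.00912) and the fit without SB216763 replicate 2 (adjusted p = 0.0347). The highest adjusted p for BTK over the settings was 0.265.

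SYK, which carries the signal from the CD79 tails to BLNK, had the only difference below 0 among the 9 genes as analysed here. It read 9.85 and 9.83 with DMSO and 9.70, 9.74 and 9.65 with SB216763, lower on each treated array but by a small amount. The difference was -0.15 (SE 0.08, 95% interval -0.32 to 0.03, adjusted p = 0.282 by limma), and it passed in 0 of 14 other settings. The interval leaves room for a fall of up to about 0.32 on the log2 scale.

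PLCG2, which cleaves membrane lipid to raise calcium, read 13.10 and 13.18 with DMSO and 13.18, 13.23 and 13.27 with SB216763. The groups touched, and the difference was 0.09 (SE 0.08, 95% interval -0.10 to 0.27, adjusted p = 0.570 by limma). With quantile normalization it was -0.02. The other PLCG2 probe read 9.41 and 9.57 with DMSO and 9.72, 9.68 and 9.70 with SB216763, a difference of 0.21 (SE 0.08, adjusted p = 0.145 by limma over all single probes). Neither probe passed the threshold.

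The receptor's own signalling chains stayed dim in both groups. CD79A read 6.13 and 6.25 with DMSO and 6.12, 6.25 and 6.34 with SB216763, above background on 4 of the 5 arrays and never by more than 0.37. CD79B read 6.65 and 6.56 with DMSO and 6.77, 6.87 and 6.64 with SB216763, above background on all 5 arrays by 0.39 to 0.72. Both sets of values overlapped between groups. The differences were 0.05 (SE 0.09, 95% interval -0.17 to 0.27, adjusted p = 0.818 by limma) for CD79A and 0.15 (SE 0.09, 95% interval -0.07 to 0.37, adjusted p = 0.365 by limma) for CD79B. So near background, a change can be understated on this scale.

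Related genes were set beside the members to see whether whole families moved. FYB1's relative PRAM1, a myeloid adaptor, differed by 0.30 (SE 0.09, adjusted p = 0.0595 by limma), and its binding partner SKAP2 by -0.06 (SE 0.10). FYB2 was below background on all arrays. LCP2, the counterpart of BLNK in T cells and myeloid cells, was well above background on every array and differed by 0.19 (SE 0.08, adjusted p = 0.171). The lipid-binding relatives of DAPP1, PLEKHA1 and PLEKHA2, differed by 0.23 (SE 0.09) and 0.22 (SE 0.09), with adjusted p-values of 0.128 and 0.152. PLEKHA1 was above background on 0 of 2 control arrays and 3 of 3 SB216763 arrays, so its level with DMSO is only a bound. Against background rather than the measured control level its fold was 1.05, and its difference was not called. PRAM1 passed with a filter on dim genes (adjusted p = 0.0319) and with a variance trend (adjusted p = 0.0472), and PLEKHA2 with array weights (adjusted p = 0.0364).

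Among the kinases, TXK, a Tec family member like BTK, rose by 0.97 (SE 0.11, adjusted p = 0.00200 by limma). It read 6.32 and 6.26 with DMSO, just over background, and 7.26, 7.10 and 7.42 with SB216763. TEC differed by -0.17 (SE 0.10) and SYK's relative ZAP70 by -0.04 (SE 0.10). The Src family members BLK, FYN and LCK differed by -0.07 (SE 0.08), -0.04 (SE 0.09) and 0.03 (SE 0.10), FYN being below background on all arrays. PLCG1, the sister of PLCG2, fell by 0.37 (SE 0.09, adjusted p = 0.0349), from 7.72 and 7.83 to 7.30, 7.48 and 7.43. With either control array removed TXK did not pass (adjusted p = 0.0771 and 0.0764), nor did PLCG1 (adjusted p = 0.144 and 0.207). PLCG1 also did not pass with the replicate number as a block (adjusted p = 0.0557). BANK1, an adaptor of the same family as PIK3AP1, was below background on all arrays, and BMX was not analysed here.

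**Figure D3:**
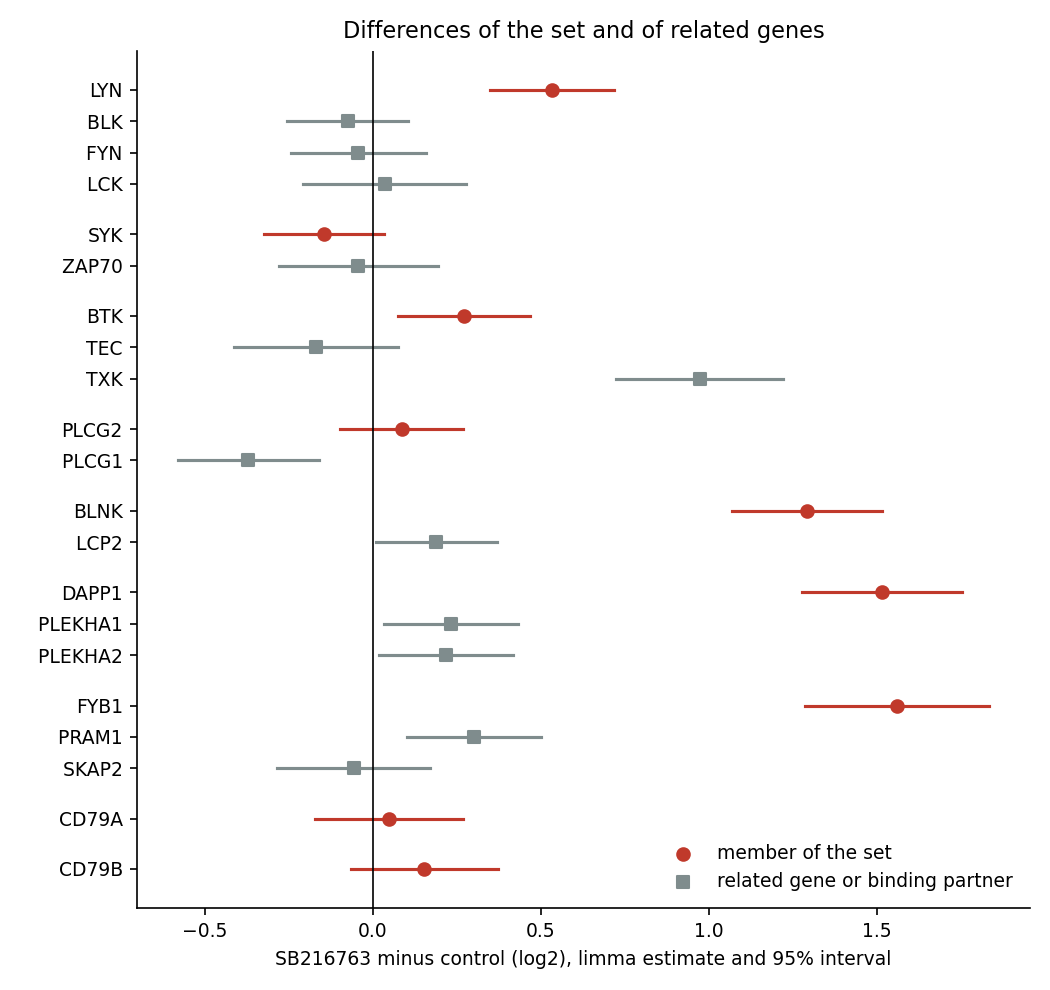
SB216763 minus control differences on the log2 scale (horizontal axis) with 95% intervals from limma, for the 9 measured genes (red circles) and, grouped under them, related genes or binding partners (grey squares). FYB1, DAPP1 and BLNK lie between 1.29 and 1.56, TXK at 0.97 and PLCG1 at -0.37, and most others near 0. FYB1, DAPP1 and BLNK were in effect selected on this difference, so their intervals are a description and not a test.

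Beyond these, 101 of 118 other genes of receptor signalling, listed by role, had a probe of their own. Limma called 12 of the 101 higher, or 11.9%, and 4 lower, or 3.96%, to be read against the 7.21% and 5.92% of all genes. The share called depends on how many genes are detected. With only genes above background on at least 2 arrays, limma called 15 of 88 pathway genes higher and 6 lower. In that setting it called 13.1% of all genes higher and 10.9% lower. The median difference of the 101 was 0.02, beside 0.00 over all genes. The split was 9 higher and 7 lower after centring the arrays on their medians, and 8 and 3 with the replicate number as a block. Limma called 0 of them without control replicate 1 and 0 without control replicate 2. At limma's unadjusted p under 0.05 with all 5 arrays, 25 of the 101 were higher and 12 lower, beside 14.3% and 12.2% of all genes. With the filter on dim genes there were 27 and 14 of 88, beside 19.9% and 16.2% of all genes. By adjusted p, leaving out SB216763 replicate 1 gave 5 higher and 1 lower. Leaving out its replicate 2 gave 11 and 6, and leaving out its replicate 3 gave 9 and 2. Of the called genes named below or above, PLCG1, ITPR1, ITPR2, NCK2, AKT1, SOS1, CBLB, CBL, INPPL1 and DOK2 did not pass without SB216763 replicate 1 (adjusted p from 0.0501 to 0.163). INPPL1 and DOK2 did not pass without SB216763 replicate 2 (adjusted p = 0.0541 and 0.0724), and PLCG1, AKT1, SOS1, CBL and DOK2 did not without SB216763 replicate 3 (adjusted p from 0.0575 to 0.118).

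Of 11 measured phosphatases and negative regulators, 5 rose and 6 did not pass. All 11 were above background on all 5 arrays. Limma called 7.21% of all genes higher, or 13.1% with only genes above background on at least 2 arrays. The group as a whole was not tested. PTPN22, a phosphatase that acts on Src and Syk family kinases, read 7.40 and 7.70 with DMSO and 8.56, 8.27 and 8.72 with SB216763, a rise of 0.97 (SE 0.15, adjusted p = 0.00628 by limma). The ubiquitin ligases CBLB and CBL, which mark active kinases for removal, rose by 0.43 (SE 0.08) and 0.33 (SE 0.08), with adjusted p-values of 0.0160 and 0.0294. The lipid phosphatase INPPL1 and the inhibitory adaptor DOK2, named after their values were seen, rose by 0.34 (SE 0.08) and 0.36 (SE 0.09). CBL, INPPL1 and DOK2 did not pass with centred arrays (adjusted p = 0.0584, 0.0601 and 0.0547) or with the replicate number as a block (adjusted p = 0.104, 0.0553 and 0.0689), nor INPPL1 with quantile normalization (adjusted p = 0.0513).

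Of 10 measured receptors and coreceptors, 1 rose. It was PTPRC, which encodes CD45, the phosphatase that keeps Src family kinases ready to act, at 8.26 and 8.36 with DMSO and 9.15, 8.88 and 9.10 with SB216763. The rise was 0.73 (SE 0.10, adjusted p = 0.00446 by limma). In the group of Src family kinases and their control, limma called 0 of 8 in either direction. Limma's unadjusted p was under 0.05 for 0 higher and 1 lower gene, beside 14.3% and 12.2% of all genes.

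Of 14 measured genes of the Vav, Ras and ERK branch, 2 rose. These were VAV1, an exchange factor that docks at BLNK and LCP2, by 0.54 (SE 0.09, adjusted p = 0.00839 by limma), and the Ras exchange factor SOS1 by 0.50 (SE 0.12, adjusted p = 0.0342). Of 8 genes on the route from protein kinase C to NF-kB, 1 rose, PRKCB, a protein kinase C isoform active in B cells. It read 9.04 and 9.26 with DMSO and 9.91, 9.85 and 9.82 with SB216763, a rise of 0.71 (SE 0.09, adjusted p = 0.00329). With the replicate number as a block SOS1 did not pass (adjusted p = 0.0619).

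In the calcium group, 2 of 13 rose and 1 fell. ITPR1 and ITPR2, calcium channels opened by the product of PLCG2, rose by 0.45 (SE 0.08) and 0.50 (SE 0.09), with adjusted p-values of 0.00947 and 0.0121 by limma, and PLCG1 fell as given above. Of 26 measured adaptors outside the set, 0 rose by limma and 2 fell. Limma's unadjusted p was under 0.05 for 7 higher and 3 lower adaptors, beside 14.3% and 12.2% of all genes. LAT2, a membrane adaptor that SYK and LYN phosphorylate in B and myeloid cells, fell from 10.02 and 10.05 to 9.43, 9.48 and 9.51, by 0.55 (SE 0.08, adjusted p = 0.00432), and NCK2, which links tyrosine kinases to actin, by 0.47 (SE 0.09, adjusted p = 0.0161). Of 8 PI3 kinase and AKT genes, AKT1 fell, by 0.29 (SE 0.08, adjusted p = 0.0472). AKT1 did not pass with quantile normalization (adjusted p = 0.0658) or with the replicate number as a block (adjusted p = 0.171).

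**Figure D4:**
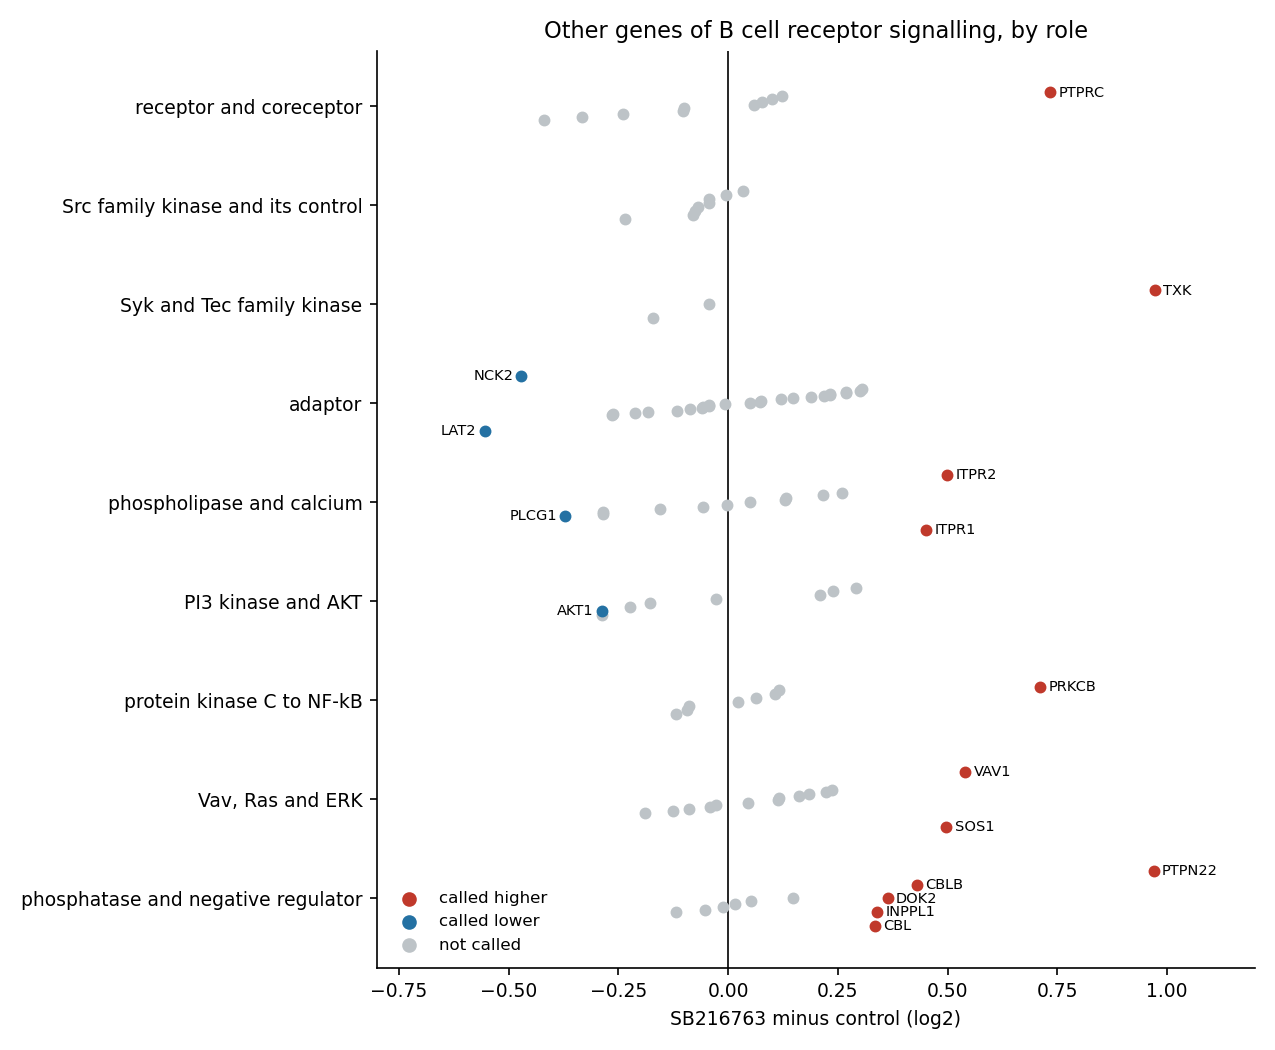
SB216763 minus control differences on the log2 scale (horizontal axis) of the 101 other measured genes of receptor signalling, 1 point per gene in rows by role; the height within a row only separates points, and called genes are coloured and named. The 5 called of the 11 measured negative regulators lie between 0.33 and 0.97, and the 4 genes called lower are LAT2, NCK2, PLCG1 and AKT1.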

How the data were processed

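Per the submitters' processing notes, the arrays were handled with Affymetrix Expression Console. The version, method of summarisation and genome build were not given in the sources used here. The authors deposited 1 table of expression values for 33297 probes, read as log2 from its range of 1.95 to 14.84, and no further normalization was applied. Groups came from the sample titles. Probes naming exactly 1 gene in the platform annotation were kept (19460 probes, 18417 genes; 1754 name several and 12083 are unnamed here), with the brightest probe per gene. SB216763 and control arrays were tested against each other in limma 3.58.1 under R 4.3.3 (lmFit, eBayes). P-values are two-sided, were adjusted by Benjamini-Hochberg across the 18417 genes, and were called at 0.05. The procedure was also run on simulated arrays with independent noise and few changed genes. Those arrays shared no culture or batch effect, so the run says nothing of such effects in these data. A gene above background on no array of 1 group has a fold of the brighter group over the higher of background and its own value. The number of arrays limits the precision.

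The members and lists were chosen with earlier results of these data known. Named were all members, up to 3 called genes per role and direction with the smallest p, and set relatives of members. Alternatives were a filter on dim genes (above background on at least 2 arrays), quantile normalization, centring, the mean of a gene's probes, all probes singly, a variance trend with robust fitting, no moderation, array weights, a replicate block and each array left out. Leaving out a control array leaves 1, assumed to vary like the SB216763 arrays. Promoter sequences are from RefSeq, matched by symbol.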

Additional observations from a re-analysis of the deposited data

How the results depend on the processing

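The number of members other than BLNK, DAPP1 and FYB1 called higher, 1 in the main analysis, was 2 with the filter on dim genes, quantile normalization, the variance trend and array weights, 0 without moderation, and 0 to 2 when single arrays were left out; 0 were called lower in each of these. The counts of pathway genes called higher and lower, 12 and 4, were 0 and 1 without moderation and 23 and 10 with array weights. The lower count was 7 with centred arrays and 8 with the variance trend. With single arrays left out the counts ran from 0 to 11 and from 0 to 6. With the replicate block the members' count was 1 and the pathway counts 8 and 3. Of all genes tested, 13.1% were called higher and 10.9% lower with the filter on dim genes, and 8.07% and 7.54% with quantile normalization. The shares were 9.17% and 7.81% with the variance trend, 13.9% and 11.7% with array weights, and 0.684% and 0.679% without moderation. They were 5.11% and 4.83% with the replicate block. Without SB216763 replicates 1, 2 and 3 in turn they were 2.93% and 2.46%, 9.12% and 6.4%, and 4.39% and 4.33%. Samples of equal number did not deviate together (r of -0.05 and -0.10). With 2 control arrays these 2 values are not independent, so this check is weak. It cannot show whether the arrays were paired. Of the single genes described, none reversed direction while called. The dim level of CD79A, CD79B and BLNK limits what can be said of them, and the cause of the differences between settings was not tested.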
